A study of Mus musculus with 36 samples.

Results

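Circular RNAs (circRNAs) of the mouse frontal cortex were compared between 2 time points of the dark phase, ZT17 and ZT13, which are 4 h apart. Zeitgeber time (ZT) counts hours from the start of the light phase, which the labels put at clock hour 6, so ZT13 was sampled at clock hour 19 and ZT17 at clock hour 23. The comparison takes the 3 samples of each time point whose labels give this tissue and these hours, 6 of the 36 samples of the series. The other 30 samples are the same tissue at ZT1, ZT5, ZT9 and ZT21 and the hippocampus at all 6 time points. All mice were males aged 9 to 10 weeks, of the strain C57BL/6 by the labels and C57BL6/N by the methods of the study, kept in a light-dark cycle, and the sources name no mutation, transgene or drug for these groups. They were anesthetized and perfused before dissection, total RNA of the frontal lobe was depleted of ribosomal RNA, and each library is bulk tissue, so fewer cells of a type and less RNA per cell cannot be told apart. The labels number the replicates but do not say whether each was a separate mouse, and p-values measure only the spread between these samples.

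A circRNA forms when the splicing machinery joins the end of an exon back to the start of the same or an earlier exon of the transcript. The ring has no free end for exonucleases to attack, so circRNAs outlive most linear transcripts, and they are abundant in neurons, where many come from genes of the synapse. Each circRNA is recognised by reads that cross the head-to-tail junction, which the linear transcript lacks.

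The junctions below identify the circRNAs that the results turn on. Each sequence holds the last 15 bases of the exon part that closes the ring, in lower case, followed by the first 15 bases of the exon part that opens it, in capitals, in the direction of transcription (GRCm38, from the GENCODE M21 transcript named).
Cdr1as, chrX:61183248-61186174, plus strand, exon 6 of C230004F18Rik-206: gtctgccgtatccagGGTTTCCAGTGGTGC
Dennd1b, chr1:139053346-139062971, plus strand, exons 6 to 9 of Dennd1b-202: agcaaattaagcactTTACTTGCCATGGTT
Tcf25, chr8:123382527-123383443, plus strand, exons 3 to 4 of Tcf25-201: atatgtggagcacagTCTAATGCAAGTGGC
Agtpbp1, chr13:59512324-59544451, minus strand, exons 2 to 11 of Agtpbp1-201: gcttgccgcctgaagATTATCTGCAATGCT
Rgs7, chr1:175121728-175153230, minus strand, exons 5 to 9 of Rgs7-206: gtccacaggcctgtgTGGAGGCTCTCCATT
Pde5a, chr3:122781567-122818067, plus strand, exons 7 to 12 of Pde5a-201: cagatgaaacatgagGACTCTTTCTCTCGT
Cdyl, chr13:35815909-35816575, plus strand, exon 5 of Cdyl-201: ctgttaatggaaaagGTGGAAAGTATCGTT
Dcun1d4, chr5:73510886-73534697, plus strand, exons 3 to 8 of Dcun1d4-202: aatgacttccctacaACTTTCAGCTGAACT
Grip1, chr10:119929901-119945171, plus strand, exons 3 to 7 of Grip1-208: atgtctctgtgatggAGGAATTCAAGGGCT

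Cdr1as, the most abundant of them, is known for its sites for the microRNA miR-7. The mature mmu-miR-7a-5p of RefSeq (GRCm38.p6) is shown with its seed, bases 2 to 8, in capitals, and the first 2 places of the Cdr1as ring that hold the complement of the seed are shown with that match in capitals.
mmu-miR-7a-5p: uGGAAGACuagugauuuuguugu
Cdr1as, chrX:61183273-61183279: ccagtaccaagGTCTTCCaacatctccag
Cdr1as, chrX:61183291-61183297: aacatctccagGTCTTCCagcaactgcaa
The match GTCTTCC, searched on the strand of the RNA and across the head-to-tail junction, occurred 123 times in the 2927 bases of Cdr1as. Of the 462 other circRNAs tested whose exon sequence could be read, 23 (4.98%) held it at least once, and none more than 2 times. A match in the letters is a description and not a binding site.

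The frontal cortex table lists 19811 circRNAs, of which 4790 were found in at least 2 of the 3 replicates of some time point and were kept. Of the kept circRNAs, 4362 were found in at least 1 of the 6 samples and 890 in all 6. The circular reads of the kept circRNAs numbered 12641, 17643 and 17755 in the ZT13 replicates and 20271, 24992 and 19074 in the ZT17 replicates, so the shallowest ZT17 sample was deeper than the deepest ZT13 sample. The total number of reads per library was not used here, so a difference in depth and a difference in all circRNAs together cannot be told apart, and every level below is scaled within the circular reads (TMM-normalised, to the mean total of the circRNAs tested). A count of 0, taken as no read, allows a share of up to 0.0237% of the circular reads in the shallowest of these samples (3 reads) and 0.0120% in the deepest. The smallest count above 0 in the file is 2, so a 0 can hide a single read, and the limit is then higher.

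The samples carried the marks of cortical tissue at low levels. Circular reads came from 3 of 7 cortical neuron genes (0.0453 to 0.163% of reads at ZT13, 0.0680 to 0.163% at ZT17), with Cux2, Rorb, Tbr1 and Foxp2 at 0 in all 6 samples, against 0 to 0.0685% in the hippocampus. The genes of striatal neurons, which a frontal lobe dissection can include, gave 0 to 0.0338% at ZT13 and 0.0262 to 0.0440% at ZT17 from 2 of 8 genes, with Drd1, Drd2 and Adora2a at 0. Hippocampal neuron genes gave 0.0338 to 0.0475% at ZT13 and 0.0247 to 0.0680% at ZT17, below the 0.0874 to 0.323% of the hippocampus samples. No kept circRNA of the frontal cortex came from any of the 7 oligodendrocyte, 7 astrocyte, 6 microglia or 4 endothelial genes looked up, so circular reads do not measure those cell types here.

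No single frontal cortex circRNA differed detectably between ZT13 and ZT17 at this depth, which does not show that their levels were alike. Of 518 circRNAs with enough reads to test, 0 passed an adjusted p of 0.05 (percent called 0; edgeR quasi-likelihood test with Benjamini-Hochberg adjustment over all of them), and DESeq2 also called 0. At an unadjusted p under 0.05 there were 17 (3.28%), 5 higher (0.965%) and 12 lower (2.32%) at ZT17, and DESeq2 gave 12. The 3 samples of each time point did not overlap for 31 circRNAs that were higher (5.98%) and 37 that were lower (7.14%). The median log2 fold change was 0.00, with the middle 50% of circRNAs between -0.27 and 0.28. Without scaling the median moved by 0.41, and the circRNAs at an unadjusted p under 0.05 were then 11 higher and 2 lower. Scaling to total circular reads gave 8 higher and 7 lower. The balance of higher and lower circRNAs therefore rests on the scaling, while the count past the adjusted threshold stayed at 0 in both.

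**Figure D1:**
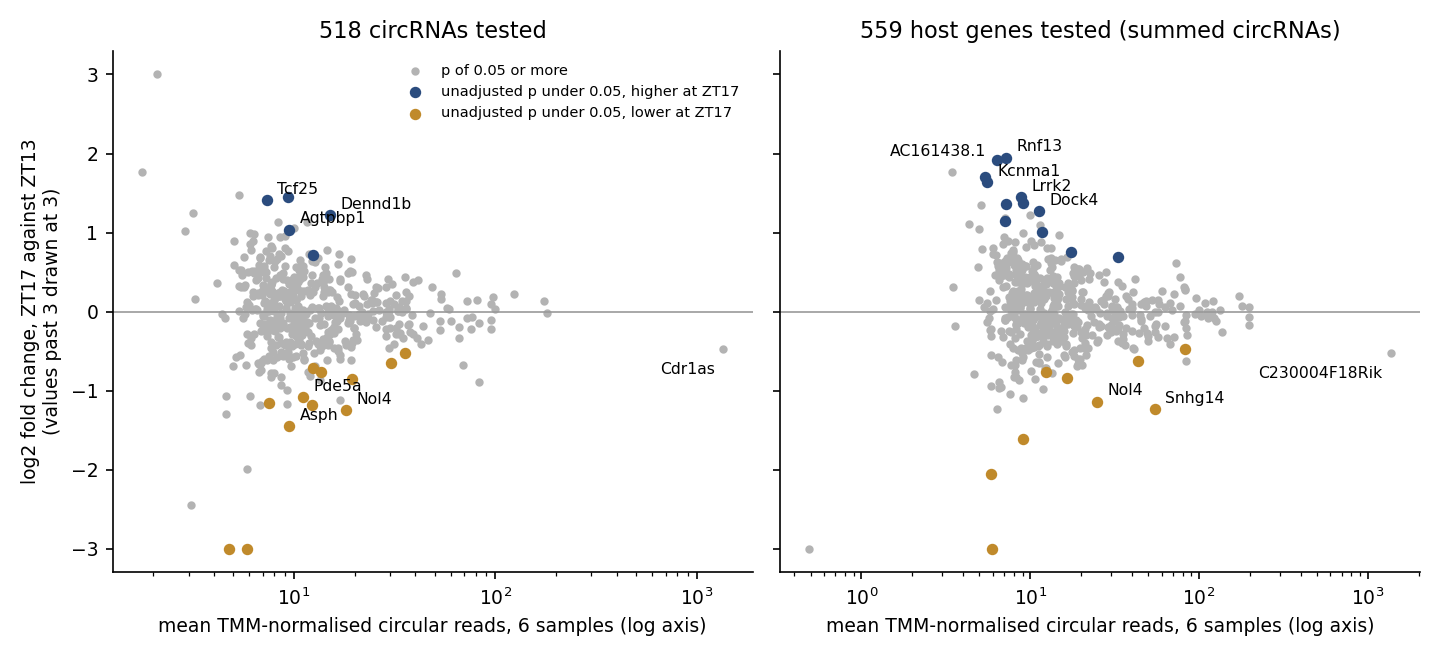
Each point is a circRNA (left) or a host gene whose circRNAs were summed (right), with its mean TMM-normalised circular reads over the 6 samples on a log axis and its log2 fold change of ZT17 against ZT13 on the other axis. Blue and ochre mark unadjusted p under 0.05, 17 circRNAs and 21 host genes, none of which passed the adjusted threshold, and the spread narrows to the right, where reads are more numerous.

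None of the circRNAs with the most reads was at an unadjusted p under 0.05. The Tulp4 circRNA (chromosome 17, 6137211 to 6139156), from a gene of the tubby family, had 195, 175 and 178 normalised reads at ZT13 and 174, 177 and 190 at ZT17, and the groups overlapped. Its log2 fold change was -0.02 with a 95% interval of -0.46 to 0.42 and its sign turned under several other settings. The Gigyf2 circRNA, from a gene that acts in translational repression, had 146, 191 and 165 reads at ZT13 and 167, 179 and 205 at ZT17, with an interval of -0.30 to 0.56. For Dtnb (a dystrobrevin), Slc8a1 (a sodium-calcium exchanger), Fat3 (an atypical cadherin), Ssbp2 and Ankib1 the log2 fold changes lay between -0.11 and 0.23, and in each the groups overlapped. A circRNA without a host gene, on the unplaced contig JH584304.1, had 54, 148 and 108 circular reads at ZT13 and 74, 132 and 20 at ZT17, and its groups overlapped (log2 fold change -0.89, SE 0.56). The Atxn1 circRNA, from the gene mutated in spinocerebellar ataxia type 1, was lower in all 3 ZT17 samples (84.8, 89.2 and 89.0 normalised reads against 106, 111 and 89.4), by less than its error (log2 fold change -0.22, 95% interval -0.72 to 0.28).

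Cdr1as stood apart from the others by its level. It had 1384, 1424 and 1471 circular reads in the ZT13 replicates and 1196, 1866 and 1177 in the ZT17 replicates. Its share of a sample's circular reads was 10.9% (95% Wilson interval 10.4 to 11.5), 8.07% (7.68 to 8.48) and 8.28% (7.89 to 8.70) at ZT13 and 5.90% (5.58 to 6.23), 7.47% (7.15 to 7.80) and 6.17% (5.84 to 6.52) at ZT17. The intervals cover counting error only. Every ZT17 share was below every ZT13 share, and the mean went from 9.10 ± 1.60% to 6.51 ± 0.837% (SD, n = 3). A two-sided exact permutation test of the shares gave p = 0.1, which 3 against 3 samples cannot go below, and 0.2 after Benjamini-Hochberg adjustment over the 6 kinds of circle compared. The ZT13 replicate with the highest share was the shallowest of the 6 samples. Over the 890 circRNAs found in all 6 samples the Cdr1as shares were 14.8, 11.6 and 12.1% at ZT13 and 8.77, 11.4 and 9.28% at ZT17, and they still did not overlap.

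On the normalised scale Cdr1as was at 1886, 1400 and 1445 reads at ZT13 and 1005, 1331 and 1079 at ZT17. The groups did not overlap, but in the fit over all 18 frontal cortex samples the log2 fold change of -0.47 (SE 0.39, 95% interval -1.28 to 0.34) was within its error (edgeR, Benjamini-Hochberg adjusted p = 1). That fit takes its error from all 6 time points, and the spread of the replicates differed between them. At ZT9 they were at 1860, 1778 and 289, and at ZT1 at 1896, 1887 and 1923. The library at 289, ZT9 replicate 3, had 6555 circular reads of kept circRNAs, the fewest of the tissue. In a fit without it, added after the data were seen, the edgeR adjusted p was 0.597, with the same log2 fold change of -0.47.

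Of the 17 circRNAs at an unadjusted p under 0.05, those with the smallest p are described next, although none passed the adjusted threshold (edgeR, adjusted p = 1 for each that is named). The 5 that were higher at ZT17 came from Dennd1b, Tcf25, Agtpbp1, Dtna and Rgs7. The Dennd1b circRNA, from an activator of Rab GTPases in endocytosis, had 10.9, 3.93 and 12.8 normalised reads at ZT13 and 27.7, 22.8 and 12.8 at ZT17. The lowest ZT17 sample was just above the highest ZT13 sample, and the log2 fold change was 1.22 (SE 0.47, unadjusted p = 0.0160 from the edgeR fit, adjusted p = 1). Tcf25, known from ribosome quality control, had 2.73, 4.92 and 3.93 normalised reads at ZT13 and 10.9, 8.56 and 12.8 at ZT17, with no overlap and a log2 fold change of 1.41 (SE 0.55). These are 2 to 5 circular reads per ZT13 sample and 12 to 14 per ZT17 sample, and 2 annotated genes share the strand there.

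Agtpbp1, which removes glutamate from the tails of tubulin, was at 6.81, 5.90 and 5.89 normalised reads at ZT13 and 9.24, 13.6 and 15.6 at ZT17. Rgs7, which speeds the shut-off of G protein signals in neurons, was at 9.54, 8.85 and 9.82 against 14.3, 16.4 and 15.6, the tightest groups of the 5. In both, all 3 ZT17 samples were above all ZT13 samples, with log2 fold changes of 1.04 (SE 0.42) and 0.71 (SE 0.33). Dtna, a dystrobrevin of the dystrophin complex, had 2.73, 7.87 and 3.93 reads at ZT13 and 16.0, 12.1 and 13.8 at ZT17, with a log2 fold change of 1.45 (SE 0.65). The next 5 by p, at unadjusted p from 0.0597 to 0.0812 (edgeR, adjusted p = 1), came from Cacna2d3 (a calcium channel subunit), Cpsf6 (an mRNA 3' end processing factor), Cadps (a priming factor of dense-core vesicles), Strbp (an RNA-binding protein) and Atp9b (a phospholipid flippase). Their log2 fold changes were 0.60 to 1.13.

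The circRNA with the smallest p of all was lower at ZT17. It came from Nol4, a gene of a nucleolar protein expressed in neurons (exons 2 to 5 of Nol4-202, chromosome 18). It had 27.3, 28.5 and 20.6 normalised reads at ZT13 and 5.88, 11.4 and 14.7 at ZT17, so that the highest ZT17 sample stayed below the lowest ZT13 sample. Its log2 fold change was -1.25 (SE 0.38, 95% interval -2.03 to -0.46, unadjusted p = 0.0032 from the edgeR fit, adjusted p = 1). In the fit without ZT9 replicate 3, added after the data were seen, the edgeR adjusted p was 0.0806. The log2 fold change was -1.25 again.

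The Grip1 circRNA, from a scaffold that binds AMPA receptors, was at 23.2, 13.8 and 14.7 normalised reads at ZT13 and 5.04, 6.42 and 11.0 at ZT17, without overlap, with a log2 fold change of -1.18 (SE 0.54). The Pde5a circRNA, from a phosphodiesterase of cyclic GMP, was at 20.4, 8.85 and 16.7 against 7.56, 7.85 and 5.50, and its groups were separate by about 1 normalised read. Its log2 fold change was -1.08 (SE 0.40).

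The Cdyl circRNA, a single exon of a chromodomain protein gene and one of the more abundant circRNAs of brain, was at 39.5, 35.4 and 36.4 normalised reads at ZT13 and at 31.1, 23.5 and 15.6 at ZT17. All 3 ZT17 samples were lower, and the log2 fold change was -0.65 (SE 0.28). Dcun1d4, which helps attach NEDD8 to cullins, was at 45, 37.4 and 44.2 against 26.0, 27.1 and 34.9, with a log2 fold change of -0.52 (SE 0.23), and it too did not overlap. Wdr7, which works with the vacuolar proton pump, overlapped between the groups, at 12.3, 21.6 and 17.7 against 12.6, 10.7 and 7.34. The Asph circRNA, which has an end off the annotated exon boundaries, was lower in all 3 ZT17 samples, but 1 ZT13 sample set most of the difference (24.5, 7.87 and 9.82 against 5.04, 4.99 and 4.59). Atxn10 and Tox, the last of the 12 by p, were not among the 10 lower circRNAs chosen for naming.

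**Figure D2:**
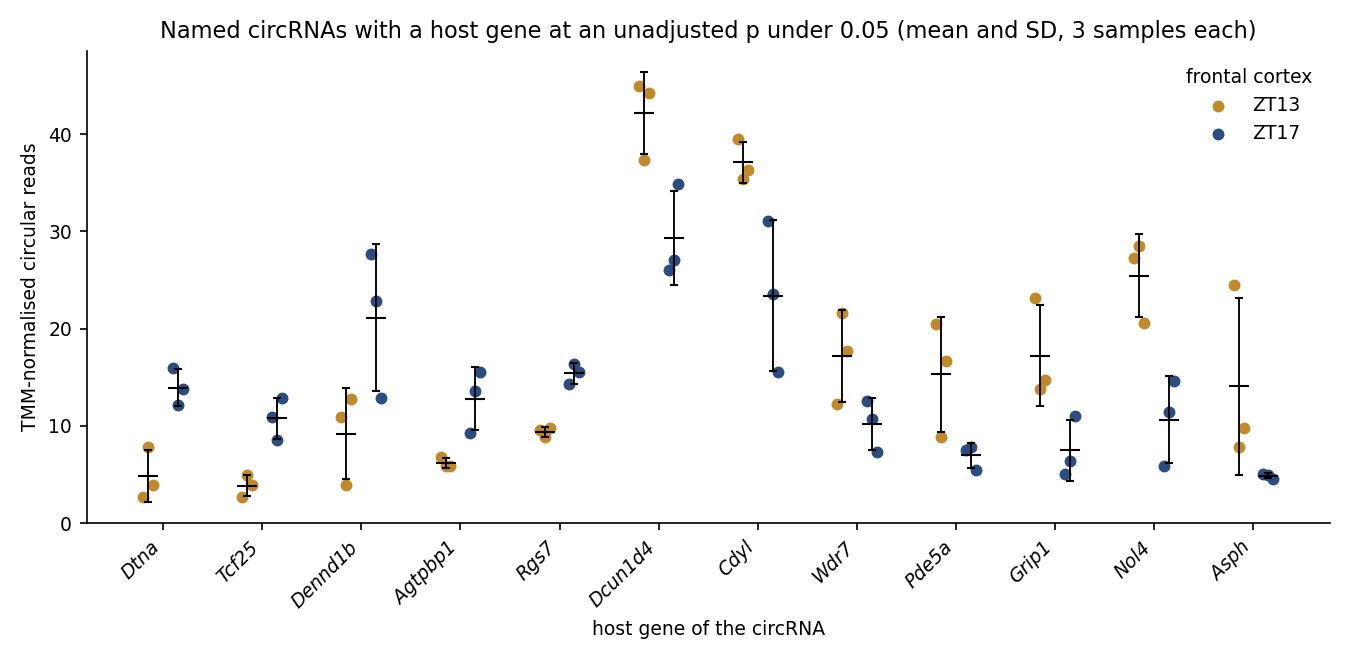
TMM-normalised circular reads of 12 named circRNAs with a host gene outside the ribosomal RNA locus at an unadjusted p under 0.05, ordered by log2 fold change. Points are samples (3 at ZT13 in ochre, 3 at ZT17 in blue), and black bars give mean and SD. In 11 of the 12 the points of the time points do not overlap, and Wdr7 is the exception. They were chosen by p from these same samples, so this is no further support. Of all 518 circRNAs tested, 13.1% did not overlap.

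Of the circRNAs lower at ZT17, 2 lie in a ribosomal RNA repeat on chromosome 17. One, on the minus strand at 39845364 to 39845519, has no host gene on its strand and had 29 reads in ZT13 replicate 2 and 0 in the other 5 samples. The other, at 39848416 to 39848682 in CT010467.1 (annotated as rRNA), had 15 and 15 reads in ZT13 replicates 1 and 2 and 0 in the rest. Neither is a difference that all ZT13 samples share. Between 39843051 and 39848682, 52 circRNAs are listed, and the 9 kept ones took 0.198, 1.17 and 0.732% of the circular reads at ZT13 and 0.0839, 0.0880 and 1.04% at ZT17. The highest and the lowest of these shares came from different time points, and the groups overlapped. The part of these ribosomal reads in other results was not tested.

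A host gene can give several circRNAs, and their reads were summed to test 559 host genes with more reads behind each. None passed the adjusted threshold (percent called 0; edgeR quasi-likelihood test, smallest Benjamini-Hochberg adjusted p = 0.548), and DESeq2 also called 0. At an unadjusted p under 0.05 were 21 host genes (3.76%), 12 higher (2.15%) and 9 lower (1.61%) at ZT17, and DESeq2 gave 17. Without scaling these were 25 higher and 1 lower, with the median of all host genes moved by 0.45, and with scaling to total circular reads 19 higher and 8 lower. The groups did not overlap for 46 host genes that were higher (8.23%) and 27 that were lower (4.83%).

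The smallest p among host genes was that of Snhg14, a long non-coding transcript of the imprinted Prader-Willi and Angelman region that carries small nucleolar RNAs and runs antisense to Ube3a. Its summed circRNAs had 58, 75 and 76 circular reads at ZT13 and 33, 58 and 33 at ZT17, or 81.3, 73.5 and 76.2 against 27.2, 40.8 and 29.5 after normalisation. The ZT13 samples lay close together and every ZT17 sample was below them. The mean was 77.0 ± 3.94 at ZT13 and 32.5 ± 7.27 at ZT17 (SD, n = 3), and the log2 fold change was -1.23 (SE 0.33, 95% interval -1.92 to -0.55, unadjusted p = 0.00098 and adjusted p = 0.548 from edgeR). In a fit with only the ZT13 and ZT17 samples the adjusted p was 0.00446 (edgeR, Benjamini-Hochberg). In the fit without ZT9 replicate 3, added after the data were seen, it was 0.0165 (edgeR, Benjamini-Hochberg). The log2 fold change was -1.23 in both, and in the DESeq2 test over all samples no host gene passed (smallest adjusted p = 0.276).

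Over the other time points Snhg14 averaged 72.8 ± 17.1 normalised reads at ZT1, 64.8 ± 31.0 at ZT5, 61.7 ± 33.3 at ZT9 and 73.6 ± 11.4 at ZT21 (SD, n = 3). Among the libraries of those times, ZT9 replicate 3, at 24.2, and ZT5 replicate 2, at 32.6, were as low as ZT17, and the other 10 were at 53.1 or above. The 5 libraries with the lowest Snhg14 share of the 18 (the 3 of ZT17 and these 2, at 0.232% or less of circular reads, with the next at 0.293%) were also the 5 with the lowest Cdr1as share (7.78% or less, with the next at 8.07%). Both shares have the same denominator in a library, and what the libraries have in common was not tested.

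The Snhg14 sum is made of many small parts. It holds 52 kept circRNAs between 59349677 and 59973650 on the minus strand of chromosome 7, of which 49 have an end off the annotated exon boundaries and 7 have the same span of 147 bases. The transcript is built of repeated units, so the reads may be shared between near-identical copies and the single positions are uncertain. Whether the junctions counted here come from rings or from joins between copies in a linear transcript was not tested. Of these circRNAs, 27 had more reads at ZT13 and 11 more at ZT17, and 1 had enough reads to be tested alone. The circRNA with the most reads (59496310 to 59497801) had 8, 8 and 10 reads at ZT13 and 3, 6 and 6 at ZT17.

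**Figure D3:**
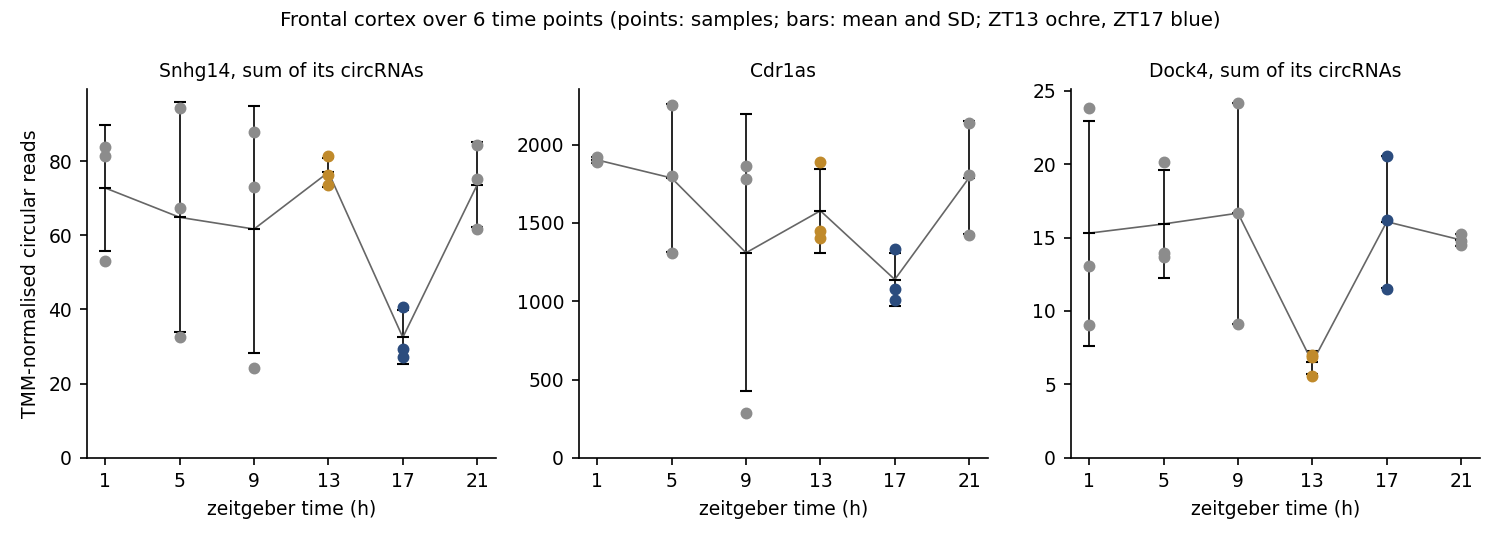
TMM-normalised circular reads over the 6 time points of the frontal cortex for the sum of Snhg14 circRNAs (left), Cdr1as (middle) and the sum of Dock4 circRNAs (right). Points are samples (ZT13 ochre, ZT17 blue, others grey), bars give mean and SD, and lines join the means. Snhg14 is at 77.0 at ZT13 and 32.5 at ZT17, and single low libraries at ZT5 and ZT9 fall to the ZT17 level.

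Nol4 came next, summed over 2 circRNAs, at 40.6, 35.3 and 27.1 normalised reads at ZT13 and 11.5, 17.6 and 17 at ZT17. The groups were separate, and the log2 fold change was -1.14 (SE 0.34, edgeR adjusted p = 0.752). In the fit without ZT9 replicate 3, added after the data were seen, the edgeR adjusted p was 0.0593. At the other time points the means lay between 19.4 and 27.8, so ZT13 was the highest and ZT17 the lowest of the 6. Herc2, a large ubiquitin ligase gene, was at 18.2, 9.80 and 13 against 4.94, 2.81 and 5.36, without overlap, on 4 to 13 circular reads a sample. Its log2 fold change was -1.62 (SE 0.68). C230004F18Rik, the host of Cdr1as, had a log2 fold change of -0.52 in the edgeR fit over all samples (adjusted p = 0.989). In the fit with only ZT13 and ZT17 it was -0.52 again (edgeR, Benjamini-Hochberg adjusted p = 0.0491). Of its 8560 circular reads in the 6 samples, 8518 were those of Cdr1as, so this is not a second result. Among single circRNAs, Cdr1as included, none passed in that fit (edgeR, smallest adjusted p = 0.352).

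Among the host genes higher at ZT17, Dock4, an activator of Rac GTPases in neurites, had the smallest p. Its 6 circRNAs summed to 5.60, 6.86 and 7.02 normalised reads at ZT13 and 11.5, 16.2 and 20.5 at ZT17, with no overlap and a log2 fold change of 1.27 (SE 0.44, edgeR adjusted p = 0.989). The ZT13 mean of 6.49 was the lowest of the 6 time points, and the other 5 lay between 14.8 and 16.7. Lrrk2, the kinase gene of familial Parkinson disease, was at 2.80, 5.88 and 5.02 against 16.5, 11.9 and 10.7 (log2 fold change 1.45, SE 0.54). The non-coding AC161438.1 was at 2.80, 2.94 and 2.01 against 9.06, 11.2 and 9.83 (1.92, SE 0.76). In both, every ZT17 sample was above every ZT13 sample, on 11 to 20 circular reads against 2 to 6. Kcnma1, the large-conductance potassium channel, and Rnf13, a ubiquitin ligase of endosomes, had no read in ZT13 replicate 3, and their ZT17 levels of 7.03 to 9.06 and 7.15 to 19.7 were above all ZT13 samples.

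Host genes were also counted by group of function, each beside the 2.15% higher and 1.61% lower of all host genes tested. In the presynaptic release machinery, 1 of 11 tested genes was at an unadjusted p under 0.05, Cadps, which was higher at ZT17 (18.2, 30.4 and 27.1 against 44.5, 38.7 and 41.1 normalised reads; log2 fold change 0.69, SE 0.31). Rims1 and Rims2, the active zone scaffolds with the most circular reads, had log2 fold changes of 0.06 (95% interval -0.28 to 0.40) and 0.44 (-0.07 to 0.96). In the postsynaptic scaffold list 1 of 11 was at that level, Tanc2, at 0, 4.90 and 2.01 against 10.7, 8.43 and 6.25. The median log2 fold changes of these lists were 0.05 and -0.08, against 0.01 over all host genes.

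Of 5 glutamate receptor genes and 2 GABA receptor genes tested, 0 were at an unadjusted p under 0.05 in the edgeR fit. Grm5, a metabotropic receptor, was at 19.6, 8.82 and 12 against 16.5, 23.9 and 25, and Grin2b, an NMDA receptor subunit, at 23.8, 29.4 and 18.1 against 14.0, 23.2 and 20.5. In both the groups overlapped, as they did for Gabra2 and Gabra4, subunits of the GABA-A receptor. The median log2 fold changes were -0.06 for glutamate and -0.20 for GABA receptor genes. Of 13 ion channel genes Kcnma1 and Cacna2d3 were at that level, both higher at ZT17. Cacna2d3 was at 8.41, 7.84 and 7.02 against 23.1, 14.1 and 9.83 (log2 fold change 1.01, SE 0.47), while Ryr2 and Kcnt2 overlapped between the groups. The medians were -0.03 for the 15 tested genes of adhesion and axon guidance and -0.09 for ion channels.

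Clock genes gave few circRNAs. Of 30 listed, 5 had a kept circRNA and 1 was tested, Npas2, a partner of Bmal1, at 16.8, 10.8 and 7.02 normalised reads at ZT13 and 13.2, 19.7 and 10.7 at ZT17 (log2 fold change 0.39, 95% interval -0.66 to 1.44). Of the sleep-need genes 4 were tested and 0 were at an unadjusted p under 0.05. Nalcn, the sodium leak channel, came nearest, at 12.6, 10.8 and 6.02 against 18.1, 15.5 and 17, with separate groups, a log2 fold change of 0.80 (SE 0.39) and edgeR adjusted p = 0.989. Homer1, a postsynaptic scaffold gene that responds to activity and sleep loss, was at 29.4, 29.4 and 35.1 against 37.9, 47.1 and 32.2, and its groups overlapped. It was also the 1 tested gene of the activity response list. The median log2 fold change of the 4 sleep-need genes was 0.55, against 0.01 over all host genes. Their values were 0.80 for Nalcn, 0.78 for Ryr3, 0.32 for Homer1 and -0.68 for Hdac4, each with a 95% interval that included 0.

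Of 18 hosts of well-studied circRNAs and of 15 chromatin regulators, the 1 gene at an unadjusted p under 0.05 was Cdyl, which stands in both lists and was lower (56.0, 56.8 and 46.1 against 38.7, 33.0 and 31.3; log2 fold change -0.62, SE 0.27). Of 10 genes of the ubiquitin system Rnf13 was higher and Herc2 lower, and of 9 genes of RNA processing 0 were at that level. The medians of these lists lay between -0.11 and 0.08.

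Whether a circRNA moved against the other circRNAs of its host was tested for 216 circRNAs of 86 host genes. None passed the adjusted threshold (edgeR diffSpliceDGE, adjusted p = 1 for the smallest), and 1 (0.463%) was at an unadjusted p under 0.05. It was the Dennd1b circRNA of exons 6 to 9. Its part of the reads of the 5 tested Dennd1b circRNAs was 20, 7.84 and 19.1% at ZT13 and 37.1, 32.3 and 20.6% at ZT17. The lowest ZT17 share was just above the highest ZT13 share. The circRNA from 139040000 to 139062971, which closes at the same exon end and opens further upstream, had 35.0, 56.9 and 39.7% at ZT13 and 36.0, 40.4 and 41.2% at ZT17, with overlap. For Asph and Strbp, next by p, the shares of the named circRNA were 58.1, 25 and 50% against 20, 21.9 and 14.3%, and 6.85, 15.2 and 12.9% against 22.7, 15.3 and 22.8%. Neither overlapped between the groups, and the unadjusted p were 0.0509 and 0.0654 (edgeR diffSpliceDGE, adjusted p = 1).

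**Figure D4:**
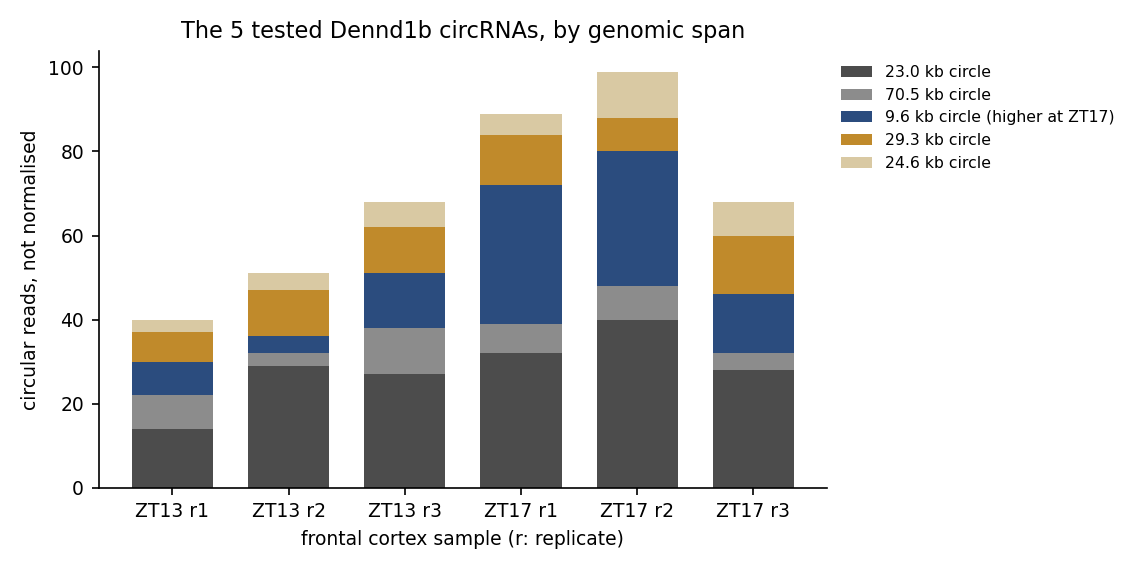
Stacked circular reads, not normalised, of the 5 tested Dennd1b circRNAs in the 6 samples, coloured by circRNA and named by the length of genome they span. The circRNA of exons 6 to 9 (blue) makes up 7.84 to 20% of each bar at ZT13 and 20.6 to 37.1% at ZT17.

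By kind of circle, circRNAs that join several exons and span up to 100 kb took 69.4, 70.3 and 71.5% of the circular reads at ZT13 and 74.9, 73.6 and 74.6% at ZT17. Cdr1as took the share given above, and the other single-exon circRNAs 8.27, 8.37 and 8.15% against 8.13, 7.77 and 7.86%. In these 3 kinds the groups did not overlap (two-sided exact permutation tests, p = 0.1 for each, the smallest possible, adjusted p = 0.2). With Cdr1as taken out of all reads, the multi-exon share was 77.9, 76.5 and 77.9% at ZT13 and 79.6, 79.6 and 79.5% at ZT17, still without overlap. Counted by the number of circRNAs found and not by reads, it was 79.9, 79.4 and 80.3% against 81.4, 80.01 and 80.7%, which overlapped (exact permutation test, p = 0.2). Over the circRNAs found in all 6 samples, however, the single-exon shares overlapped, at 9.27, 9.83 and 9.78% against 10.04, 9.38 and 9.55%, with the ZT17 mean higher. Multi-exon circRNAs over 100 kb (3.73 ± 0.166% and 3.46 ± 0.182%; SD, n = 3), circRNAs off exon boundaries (6.68 ± 0.510% and 6.10 ± 0.433%) and those without a host gene (1.83 ± 0.443% and 1.65 ± 0.371%) overlapped between the time points.

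More circRNAs were found at ZT17, and how many more rested on the smallest count accepted. Only kept circRNAs were counted. A circRNA could be kept through its ZT17 replicates alone, which held more circular reads, and thinning afterwards does not undo this. The part of the difference that this makes up was not tested. With every sample thinned to 12641 reads (mean of 100 draws) and any read accepted, 1992, 2333 and 2432 were found at ZT13 and 2622, 2778 and 2540 at ZT17 (two-sided exact permutation test, p = 0.1). The file lists no circRNA with a single read, while thinning makes such counts in every sample but the shallowest. With at least 2 reads accepted in each thinned sample, as in the file, the numbers were 1992, 1951 and 2023 against 2047, 2034 and 2056. The groups were still separate (exact permutation test, p = 0.1), but the difference went from 395 circRNAs to 57.4. With at least 3 reads they were 1323, 1287 and 1326 against 1321, 1310 and 1347, which overlapped (exact permutation test, p = 0.6).

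The same holds for circRNAs found in all samples of a single time point. As listed, 88 of the 4790 kept circRNAs were found in all 3 ZT17 samples and no ZT13 sample, against 15 the other way round. Being found in all 3 samples of a time point is by itself enough to be kept. Thinned to equal depth with any read accepted, the numbers averaged 71.7 and 21.15. With at least 2 reads accepted after thinning they averaged 38.3 and 33.0. Those with the most reads with a host gene were Snap91, from a clathrin assembly gene of synaptic vesicle recycling (0, 0 and 0 reads at ZT13, 7, 8 and 9 at ZT17), and Nell2, from a secreted neural glycoprotein gene (4, 9 and 3 reads at ZT13, 0, 0 and 0 at ZT17), beside a circRNA without a host gene on chromosome 8 (6, 18 and 9 reads at ZT17). All 3 were also read in the hippocampus at these time points, with 7 reads for Snap91, 14 for Nell2 and 13 for the circRNA on chromosome 8. All of these were chosen for this pattern, and none had the reads to be tested.

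**Figure D5:**
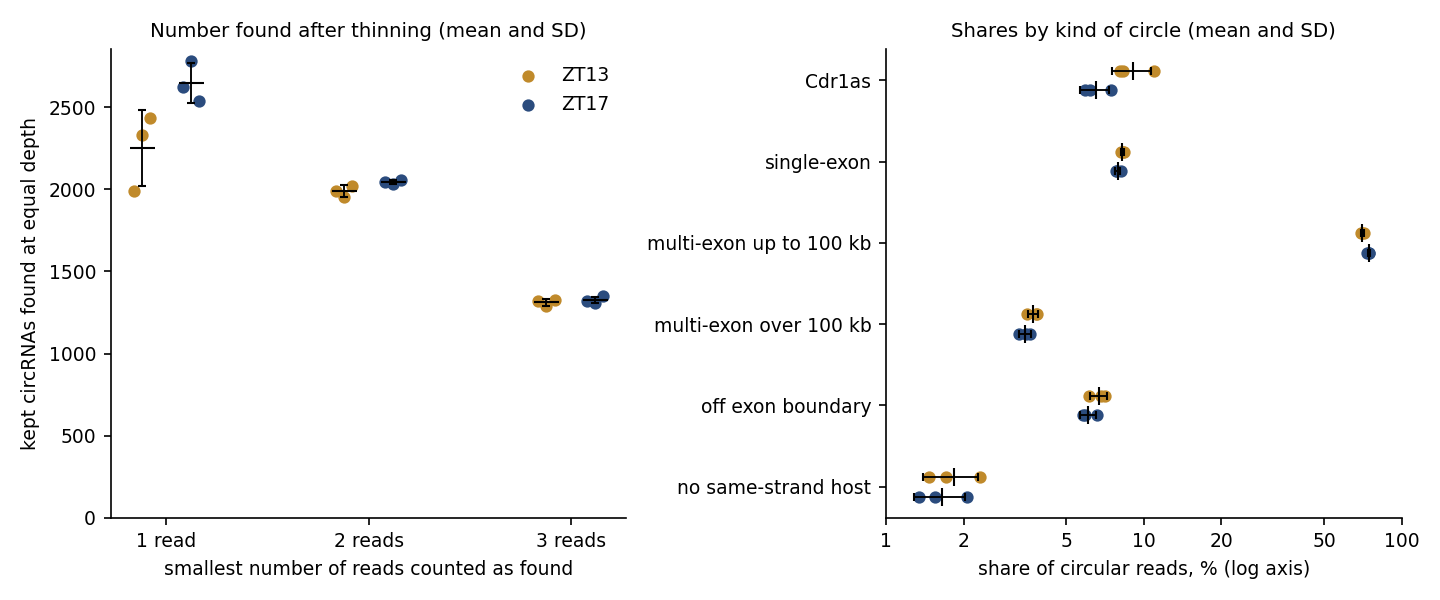
Left, number of kept circRNAs found per sample after thinning to 12641 reads, for a smallest accepted count of 1, 2 or 3 reads. Right, share of circular reads by kind of circle on a log axis. Points are samples (ZT13 ochre, ZT17 blue) and bars give mean and SD. The gap of 395 circRNAs at 1 read narrows to 57.4 at 2 reads and 14.2 at 3.

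The change from ZT13 to ZT17 was set against the same change in the hippocampus in a fit over all 36 samples. The sources do not say whether cortex and hippocampus samples came from the same mice, and the fit treated all samples as independent. Of 710 circRNAs, 0 differed between the tissues at an adjusted p under 0.05 (percent called 0; edgeR quasi-likelihood test, smallest Benjamini-Hochberg adjusted p = 0.555; DESeq2 also 0), and 40 (5.63%) did at an unadjusted p under 0.05, 13 (1.83%) of them with the higher change in the cortex and 27 (3.8%) with the lower. The smallest p belonged to an Atrnl1 circRNA (chromosome 19, 57751630 to 57797503), from an attractin-like gene. In the cortex it was at 29.6, 34.3 and 31.7 normalised reads at ZT13 and 30.9, 32.9 and 23.3 at ZT17, with overlap, and in the hippocampus at 14.0, 12.2 and 10.1 against 22, 27.2 and 28.7, without. The difference between the tissues was -1.25 on the log2 scale (SE 0.34). Ntng2, a netrin-G synaptic adhesion gene, was at 5.92, 8.84 and 10.9 against 2.80, 3.21 and 4.86 in the cortex and went the other way in the hippocampus (0, 5.65 and 10.1 against 18.2, 15.6 and 9.55, with overlap), with a difference of -2.51 (SE 0.75). Mlip was at 4.44 to 12 against 5.61 to 13.6 in the cortex and at 0 in all 3 hippocampal ZT13 samples against 5.31 to 8.60.

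Cdr1as had means of 1743 ± 266 and 1253 ± 212 in the cortex and 908 ± 368 and 1293 ± 74.1 in the hippocampus (SD, n = 3) on the scale of that fit. The difference between the tissues in its change was -0.98 (SE 0.49, edgeR adjusted p = 0.872), lower at ZT17 in the cortex and higher in the hippocampus. Hippocampal ZT13 replicate 1, at 502 with 216 Cdr1as reads, was far below the other 2 of its time point (1221 and 999.5). Without a filter on low counts, over 6656 circRNAs, Cdr1as was the only circRNA to pass (edgeR adjusted p = 4.22e-16, difference -0.97). The p thus changed with the set of circRNAs in the fit, while the difference hardly changed from -0.98. Why it changed was not tested, and this p is not taken as evidence of a difference between the tissues.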

How the data were processed

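Total RNA of mouse frontal cortex was sequenced single-end after depletion of ribosomal RNA. The authors mapped the reads with BWA to GRCm38 and deposited read counts of the head-to-tail junctions called by CIRI2, 1 column per sample, not normalized. The deposited counts start at 2 reads per circRNA and sample, and 1 column that matched no sample was not used. Groups were taken from the labels. The circRNAs found in at least 2 replicates of 1 time point were kept, annotated with GENCODE M21 and summed by host gene on the same strand. Levels are counts divided by TMM effective library sizes. The 6 samples held 12641 to 24992 circular reads of kept circRNAs. A count of 0, taken as no read, allows a share of 0.0120 to 0.0237%, and more where it hides a single read. Wilson intervals cover counting error only.

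ZT17 was tested against ZT13 with edgeR 4.0.16 (filterByExpr, TMM, quasi-likelihood, all 18 frontal cortex samples in 1 fit, R 4.3.3), with Benjamini-Hochberg adjustment over all features tested and a threshold of 0.05. The share of a circRNA within its host was tested with diffSpliceDGE, and the difference from the hippocampus with an interaction term over 36 samples. Shares and numbers were compared with two-sided exact permutation tests (scipy 1.17.1), which cannot go below p = 0.1. DESeq2 1.42.0, other scalings and filters, a fit of the 2 time points alone, a replicate block and leaving out each sample were the alternatives. By rule the circRNAs named are Cdr1as, the 10 with the most reads, the 10 with the smallest p in each direction and the 3 with the smallest p for shares and for the tissue difference; the host genes named are the 5 with the smallest p in each direction and, per list, the 2 with the most reads and any at p under 0.05; any feature past the adjusted threshold in an alternative was added. Circles found at 1 time point alone were named after their values were seen. The scripts were tested on simulated data. Replicates differed beyond sampling noise, so none was counted as a duplicate. The members and the gene lists were chosen with earlier results of these data known. The results of 1 host gene are not reported here.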

Additional observations from a re-analysis of the deposited data

How the results depend on the processing

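With no filter on low counts, 1 of 4790 circRNAs (the one of the ribosomal RNA locus read in a single ZT13 library) passed the adjusted threshold. At an unadjusted p under 0.05 were 140 of these 4790, 75 of 2156 host genes and 87 of 3471 shares within a host. For the difference between tissues 419 of 6656 were at that level, and 1 (Cdr1as) passed the adjusted threshold. The main fits had 17 of 518, 21 of 559, 1 of 216 and 40 of 710 at an unadjusted p under 0.05. With only ZT13 and ZT17 in the fit, 34 of 516 circRNAs, 35 of 559 host genes and 6 of 215 shares were at that level. The adjusted threshold was passed by 0 circRNAs and by 2 host genes (Snhg14 and C230004F18Rik). More or fewer features and samples enter these fits by construction. Leaving out single libraries gave 11 to 25 circRNAs, 13 to 34 host genes, 0 to 3 shares and 29 to 56 differences between tissues at an unadjusted p under 0.05; host genes past the adjusted threshold were 0 to 1, the 1 being Snhg14 without ZT9 replicate 3, an alternative chosen after seeing the data, as were the minimum of 2 reads after thinning, the shares among circRNAs found in all 6 samples and the shares without Cdr1as. The difference in circRNAs found at equal depth was 265 to 484, and the total of circular reads was 21.2 to 41.6% higher at ZT17.

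Shares reversed in 3 cases: counted by number of circRNAs, circles over 100 kb were 0.191 and circles without a host 0.232 percentage points higher at ZT17, and single-exon circles were 0.0317 points higher among circRNAs found in all 6 samples. The share without a host ranged from -0.385 to 0.0657 points without single libraries. Leaving out scaling moved the median of all circRNAs by 0.41 and of all host genes by 0.45, so values below 0 by less than that turned positive by construction, which says nothing of the single genes: 0.40 for the Tulp4 circRNA, 0.31 for Ssbp2, 0.20 for Atxn1, and for host genes 0.41 for Anks1b, 0.41 for Dlgap1, 0.17 for Grin2b, 0.0533 for Lrp1b, 0.17 for Ryr2, 0.41 for Tulp4, 0.28 for Hnrnpu, 0.12 for Elavl3, 0.31 for Nsd2 and 0.37 for Rnf169. With no filter they were 0.0527 for the Tulp4 circRNA, 0.0748 for Anks1b, 0.0638 for Dlgap1, 0.0455 for the Tulp4 host sum and 0.0445 for Rnf169. Scaling to total reads gave 0.0616 for the Tulp4 circRNA, 0.0246 for Anks1b and 0.0138 for Dlgap1. The Tulp4 circRNA was also at 0.0263 in DESeq2, 0.0252 with DESeq2 size factors, 0.0075 among circRNAs found in all 3 replicates and 0.0097 with only 2 time points. Without single libraries the values of both signs ran from -0.0567 to 0.0302 for the Tulp4 circRNA, -0.12 to 0.0066 for the Tulp4 sum, -0.0170 to 0.28 for Ankib1, -0.22 to 0.13 for Anks1b, -0.24 to 0.35 for Dlgap1, -0.0739 to 0.16 for Fat3, -0.0752 to 0.16 for Kcnt2, -0.15 to 0.23 for Klhl2, -0.0399 to 0.13 for Rims1, -0.20 to 0.13 for Rnf169 and -0.21 to 0.0237 for Ssbp2, and from -6.93 to 0 for the ribosomal circRNA. The cause was not tested. The other named values kept their direction.

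Replicates with the same number did not deviate together (r = -0.01, -0.07 and 0.03), so the numbers were not read as pairs. With the number as a replicate block, 0 circRNAs and 0 host genes passed the adjusted threshold, and 12 circRNAs, 18 host genes, 1 share and 33 differences between tissues were at an unadjusted p under 0.05. Depth limits most values: many of the named circRNAs rest on fewer than 20 circular reads per sample, and an exact permutation test of 3 against 3 samples cannot go below p = 0.1.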
